A study of Mus musculus with 12 samples.

Results

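Across 2038 genes that the deposited tables list as changed, 97 genes rose between 12 h and 24 h of culture both without and with IFNβ and were not listed as changed by IFNβ at 12 h. They were chosen from the values themselves: a gene had to appear in both tables of 24 h against 12 h, to have the higher mean at 24 h in both, and to be missing from the table of IFNβ against control at 12 h. Of 224 genes in both time tables, 160 were higher at 24 h in both arms, 51 of those were in the 12 h IFNβ table and 109 were outside it. Another 12 were then left out by name, among them complement C1q genes, which leaves the 97. All 97 are protein-coding in RefSeq, and 4 of them carry a predicted-gene or clone name in the tables, of which Gm5483 is Cstdc4 in RefSeq.

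The cells were mouse bone marrow monocytes, purified by magnetic sorting (MACS) and cultured with 20 ng/mL of the growth factor M-CSF, which every group received. Control cells received M-CSF alone and treated cells also received 100 U of mouse IFNβ, a type I interferon. RNA was sequenced after 12 h and after 24 h in 4 groups of 3 libraries, 12 in all. The labels give no strain, age or sex and do not tie replicates to separate animals, so every p-value here reflects variation among these libraries, part or all of which may be technical.

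M-CSF acts through its receptor on monocytes, keeps them alive and drives their maturation into macrophages, large adherent cells that take up and digest material in lysosomes. Maturing cells are known to rebuild their surface receptors, their actin skeleton, their lipid handling and the growth factors that they release. Type I interferon signals through its own receptor and the STAT proteins to a set of antiviral genes, and in monocytes it also changes many genes of maturation.

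Values below are normalized counts per gene. Each deposited table had been scaled on its own, so the time tables were put on the scale of the 12 h IFNβ table through the 12 h libraries that they share, dividing control values by 1.12 and IFNβ values by 0.895. Whether the values were divided by gene length is not given, so levels are compared between libraries and not between genes. A change written on the log2 scale is a difference of means of log2(normalized count + 1), which understates the change of low genes.

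The tables name few of the defining markers of cell types, since they list changed genes only. Of 12 monocyte markers, 3 were listed as falling with time in control (Vcan, Fn1 and Ace) and 5 with IFNβ. Of 10 macrophage markers, 3 were listed as rising in control (Mertk, Maf and Apoe) and 4 with IFNβ, and none fell. Of 14 neutrophil markers, 3 were listed in control (Retnlg, Stfa1 and Stfa2l1, all rising). Their summed level was 2223, 5045 and 2535 in the 12 h control libraries and 4996, 13132 and 6367 at 24 h. With IFNβ, Stfa2l1 alone was listed. The other 11 neutrophil markers, including S100a8, S100a9 and Ly6g, were not in the control time table, and none of 10 mast cell and basophil markers was listed. Other lists also moved with time. Ppbp and Vwf of 10 megakaryocyte markers rose in control. Of 10 plasmacytoid dendritic cell markers, 4 rose in control and Ccr9 alone rose with IFNβ, while Cox6a2 fell in both arms. Of 10 conventional dendritic cell markers, Ccr7 and Fscn1 rose in both arms and Xcr1 fell with IFNβ. Among 10 B cell markers Ms4a1 and Fcmr rose in control and Jchain fell in both arms, and of 10 erythroid markers Slc4a1 and Ermap fell in both arms. Their part in the members' rise was not tested. In such bulk samples, fewer cells of a type and less RNA per cell cannot be told apart.

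Because the rise with time chose the members, it is described here without a test. The authors listed 3.12% of the genes tested as higher at 24 h in control and 2.16% with IFNβ, and the 97 genes were 19.7% of the 493 risen genes in control and 29.0% of the 335 with IFNβ. The median rise of the 97 on the log2 scale was 1.88 in control (range 1.0 to 5.70) and 1.85 with IFNβ (range 0.97 to 4.24), beside medians of 1.61 and 1.77 over all genes listed as higher. In the authors' deposited table, the median log2 fold change of the members was 1.90 in control and 1.81 with IFNβ. The rise was larger in control for 50 of the genes by the authors' values and larger with IFNβ for 47. All 3 libraries at 24 h lay above all 3 at 12 h for 96 genes in control, the exception being Timp3, and for 93 with IFNβ, the exceptions being Asprv1, Fpr1, Gm5483 and Tm4sf19. Over all genes listed as higher, the same held for 478 of 493 in control and 329 of 335 with IFNβ. By mean level over the 12 libraries, 8 genes were below 10 normalized counts, 36 were between 10 and 100, 42 between 100 and 1000 and 11 at 1000 or more.

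**Figure D1:**
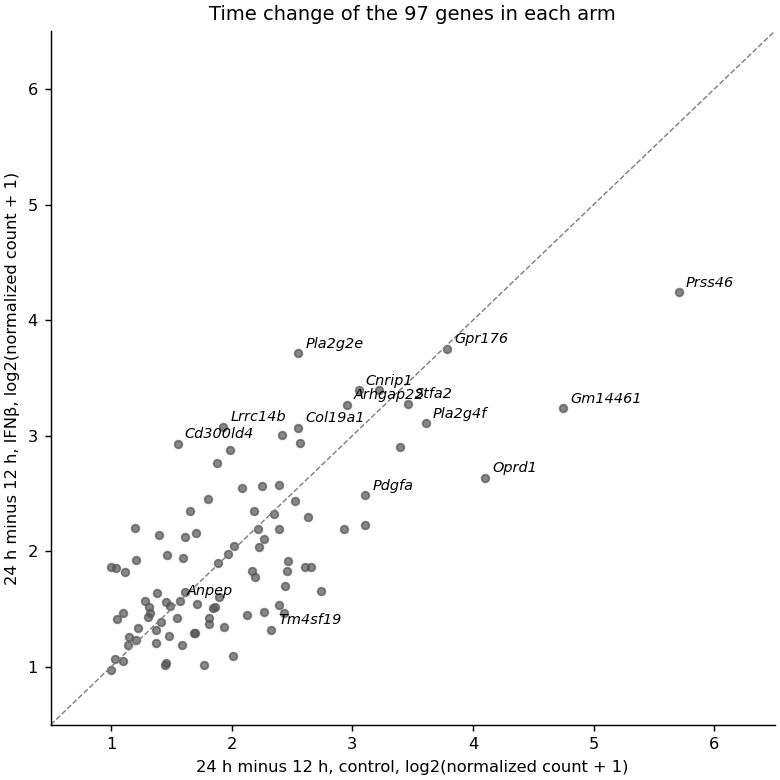
Change from 12 h to 24 h of each of the 97 genes as the difference of means of log2(normalized count + 1), in control cells (horizontal axis) and IFNβ-treated cells (vertical axis). Each point is 1 gene and the dashed line marks equal change in both arms; points run from 1.0 to 5.70 in control and from 0.97 to 4.24 with IFNβ, and lie on both sides of the line.

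At the edge of the rule, the smallest rises inside it were those of Fpr1 (log2 fold change 1.83 in control and 1.0 with IFNβ in the authors' deposited table), Dnmt3a (1.44 and 1.01) and Shtn1 (1.46 and 1.01). Just outside were genes that rose in both arms but entered the 12 h IFNβ table: Fabp5, a fatty acid carrier, at a log2 fold change of -1.01 in the authors' deposited table, C77080 at 1.03 and Sash1 at 1.04.

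To order the members, 71 of the 97 were given a role by what their products are known to do, after their values had been seen; 26 were given none. Among 4 secreted ligands, Pdgfa encodes the A chain of platelet-derived growth factor, a mitogen for fibroblasts and smooth muscle. Pdgfa read 190, 159 and 260 normalized counts in the control libraries at 12 h and 1707, 1437 and 2075 at 24 h. With IFNβ it read 77.6, 96.8 and 188 at 12 h and 656, 583 and 662 at 24 h. The 24 h libraries were far above the 12 h libraries in both arms, by 8.57-fold in control and 5.24-fold with IFNβ, and at 24 h every IFNβ library was below every control library.

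Gdf15, a stress-responsive cytokine of the TGF-β family, rose from 474 ± 133 (SD, n = 3) to 1808 ± 387 in control and from 435 ± 134 to 1085 ± 219 with IFNβ. Tnfsf12 encodes TWEAK, a TNF family ligand, and went from 611 ± 149 to 1322 ± 140 and from 624 ± 88.5 to 1420 ± 188, nearly the same in both arms. Kitl encodes stem cell factor, the ligand of the receptor KIT, and was the lowest of the ligands in normalized counts. Kitl read 2.06, 6.20 and 6.15 in control at 12 h and 11.4, 17.2 and 23.2 at 24 h. It read 8.33, 14.8 and 22.3 with IFNβ at 12 h and 73.0, 70.1 and 57.0 at 24 h, so that the IFNβ libraries at 24 h stood above all others.

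The 10 surface receptors included peptide and orphan G protein-coupled receptors. Gpr176, an orphan receptor, read 2.02, 0.875 and 7.05 in control at 12 h and 53.7, 34.1 and 61.5 at 24 h. With IFNβ it read 0.468, 7.60 and 43.0 at 12 h and 152, 87.9 and 99.1 at 24 h. The 12 h and 24 h libraries did not overlap within either arm. Oprd1, the delta opioid receptor, was at 0 in all 3 IFNβ libraries at 12 h and at 5.85, 1.61 and 12.5 at 24 h, while control went from at most 0.881 to 44.1, 30.4 and 5.80. Lrp12, a low-density lipoprotein receptor-related protein, rose from 316 ± 29.7 to 1184 ± 249 in control and from 513 ± 130 to 1934 ± 531 with IFNβ. Cd4, the co-receptor of helper T cells that some myeloid cells also carry, rose from 16.8 ± 8.37 to 49.6 ± 0.364 and from 19.2 ± 6.32 to 99.1 ± 9.29; of 10 T and NK cell markers it was the 1 gene listed in the time tables. Fgfr1, Prokr1 and Gpr27 rose by 1.31 to 2.22 on the log2 scale in control and by 1.44 to 2.19 with IFNβ.

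Cd300ld4 and Cd300ld5 belong to the CD300 family of paired immunoglobulin-like receptors of myeloid cells and lie 4377 bases apart on chromosome 11. Cd300ld4 read 37.8, 16.8 and 16.6 in control at 12 h and 75.7, 54.7 and 70.9 at 24 h, against 41.2, 47.6 and 48.1 and then 485, 306 and 298 with IFNβ. Cd300ld5 read 10.7, 6.19 and 7.89 and then 54.6, 28.5 and 27.2 in control, against 12.0, 21.1 and 6.80 and then 111, 108 and 71.8 with IFNβ. For both genes the 3 IFNβ libraries at 24 h were above all other libraries. The counting tool is not given in the sources used here, and reads of near copies like these may be split between them. Their transcripts were not compared, and their promoters are shown only to describe how alike the genes are there. In the RefSeq promoter windows (GRCm38.p6), the 250 bases before the start site that the window uses are identical at 250 of 250 positions. That start site lies inside the annotated gene for both, with 137 bases of the Cd300ld4 window and 90 of the Cd300ld5 window overlapping the gene. The 113 bases of the Cd300ld4 window that precede the gene, at chr11:115027071-115027183 on the minus strand, are printed 5′ to 3′ with matches to GAGGAAGT and CACGTG in capitals.
Cd300ld4: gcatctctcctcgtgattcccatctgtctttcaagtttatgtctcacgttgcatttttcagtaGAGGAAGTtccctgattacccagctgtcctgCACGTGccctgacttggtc

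Those letters are 2 of 22 short motifs looked up on both strands, chosen after values had been seen, in windows of 300 bases (250 before the start site and 50 after). RefSeq windows were matched for 73 members, 98 windows in all, and compared with all 32851 windows. GAGGAAGT, which resembles sites of the myeloid factor PU.1, was in 5.10% of member windows and 3.20% of all windows. CACGTG, the E-box core, was in 8.16% and 7.15%. GGGCGG was in 45.9% and 35.7%, CCAAT in 42.9% and 37.4%, TATAAA in 11.2% and 13.6%, TGANTCA in 7.14% and 7.81% and the interferon-stimulated response element in 1.02% and 3.44%. TGTGGT was in 20.4% and 16.8%, TGCTGA in 21.4% and 19.5%, TGACCT in 17.3% and 16.3%, AGGAAGT, which GAGGAAGT contains, in 10.2% and 9.35%, and TTGCNNAA in 8.16% and 10.8%. TCATGTG was in 6.12% and 3.77%, and TCACATGA, which contains its reverse complement, in 2.04% and 0.986%. TCACGTG was in 2.04% and 3.77%, TGAGTCA in 5.10% and 5.20% and TTGCNNCAA in 4.08% and 2.08%. GTCACGTG was in 1.02% and 2.25%, TGACGTCA in 1.02% and 1.79%, and the antioxidant response element in 1.02% and 0.423%. TCACGTGA and a spaced direct repeat of the nuclear receptor site were in 0 member windows, against 0.974% and 0.0152% of all windows. A match describes letters and not a bound site.

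Among 7 adhesion and guidance molecules, Itga6, the α6 integrin chain of laminin receptors, read 1114, 1453 and 1017 in control at 12 h and 2174, 2396 and 2758 at 24 h. With IFNβ it read 883, 810 and 1200 and then 5038, 1745 and 4609, so at 24 h 1 IFNβ library was below all control libraries and the others were above them. Cadm1, a cell adhesion molecule of the immunoglobulin family, read 217, 117 and 131 and then 894, 709 and 876 in control, and 150, 92.9 and 80.9 and then 379, 338 and 408 with IFNβ. Cadm1 thus separated by time in each arm and by treatment at 24 h. Plxna2, a plexin that receives semaphorin guidance signals, rose by 2.63 on the log2 scale in control and 2.30 with IFNβ. Dscam, an immunoglobulin family adhesion molecule best known in neurons, read 9.79, 14.2 and 4.35 and then 56.3, 61.6 and 40.2 in control, and 3.88, 1.94 and 1.97 and then 7.67, 15.7 and 14.8 with IFNβ. Sdc1, the heparan sulfate proteoglycan syndecan-1, rose 4.70-fold in control and 2.79-fold with IFNβ. Igsf11 was at 0 in all 3 control libraries at 12 h and at 10.6, 1.51 and 5.61 at 24 h.

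Genes of matrix and glycan assembly rose by a median of 1.66 on the log2 scale in control and 1.84 with IFNβ (6 genes). Ndst1, an enzyme that sulfates heparan sulfate chains, rose from 2096 ± 370 to 5176 ± 551 in control and from 1314 ± 261 to 3707 ± 101 with IFNβ. Pomk, a kinase that phosphorylates a mannose on dystroglycan, rose from 351 ± 43.0 to 1152 ± 121 and from 260 ± 49.7 to 754 ± 40.6. Timp3, an inhibitor of metalloproteinases held in the matrix, read 37.9, 154 and 118 at 12 h and 126, 422 and 381 at 24 h in control, where the lowest 24 h library overlapped the 12 h range. Col19a1, a collagen chain, was at 0 in all 3 IFNβ libraries at 12 h and at 5.80, 5.47 and 12.5 at 24 h.

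The 4 lysosome and autophagy genes differed in their level and in their order between arms. Hgsnat, an acetyltransferase of lysosomal heparan sulfate breakdown, rose 2.30-fold in control and 2.35-fold with IFNβ, from 1819 ± 239 to 4182 ± 332 and from 1396 ± 113 to 3282 ± 323. Tecpr1, a tether between autophagosomes and lysosomes, rose 3.01-fold and 2.28-fold, from 1733 ± 114 to 5218 ± 204 and from 1937 ± 158 to 4418 ± 392. Rragd, a Rag GTPase that brings mTORC1 to the lysosome, read 58.9, 53.1 and 84.3 and then 360, 303 and 396 in control. With IFNβ, Rragd read 33.4, 45.7 and 43.1 and then 77.3, 132 and 142, so its 24 h control libraries were more than all of its other libraries. Hyal1, a lysosomal hyaluronidase, went the other way, with IFNβ libraries above the control libraries of the same time at both times. Hyal1 read 17.0, 41.6 and 36.0 and then 100, 130 and 129 in control. With IFNβ, Hyal1 read 44.3, 69.3 and 87.5 and then 180, 245 and 385.

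Among 5 genes of lipid and eicosanoid handling, Pltp encodes phospholipid transfer protein. Pltp read 215, 127 and 160 and then 560, 560 and 610 in control, and 129, 68.0 and 82.0 and then 243, 208 and 251 with IFNβ. Hpgds, the hematopoietic prostaglandin D synthase, rose from 477 ± 176 to 1630 ± 300 and from 730 ± 149 to 1935 ± 129. Pla2g2e, a secreted phospholipase A2, was at 0 in all control libraries at 12 h and at 12.4, 6.54 and 1.01 at 24 h. With IFNβ, Pla2g2e read 0.132, 0 and 10.4 and then 18.4, 36.8 and 38.7. Pla2g4f, a cytosolic phospholipase A2, rose to 41.7 ± 9.82 in control and 16.3 ± 11.5 with IFNβ from 3.0 ± 2.80 and 1.40 ± 2.38.

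Regulators of the cytoskeleton and of small GTPases numbered 8. Arhgap22, a GTPase-activating protein for Rac, read 94.9, 73.4 and 83.4 and then 749, 567 and 656 in control, and 51.5, 34.4 and 55.3 and then 618, 407 and 371 with IFNβ, a rise of 7.84-fold and 9.89-fold. Tns1, tensin 1, which links integrins to actin, read 1899, 1727 and 1732 and then 5564, 4933 and 6895 in control, and 1151, 836 and 1370 and then 3019, 2233 and 2887 with IFNβ. Dock3, an exchange factor for Rac, read 117, 52.2 and 85.1 and then 430, 211 and 385 in control, and 51.5, 43.5 and 45.1 and then 129, 79.9 and 99.1 with IFNβ. For Tns1 and Dock3 all IFNβ libraries at 24 h lay below all control libraries of that time. Sipa1l2, a GTPase-activating protein for Rap, rose 2.02-fold and 2.12-fold, and Shtn1, shootin 1, rose 2.76-fold and 2.01-fold.

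In membrane traffic, Syngr1, a synaptogyrin of small vesicles, read 221, 300 and 288 and then 1464, 1299 and 1458 in control, and 284, 221 and 345 and then 1587, 1056 and 1249 with IFNβ. Its groups overlapped between treatments at both times. Sbf2, a myotubularin-related protein, rose from 449 ± 48.0 to 907 ± 151 and from 225 ± 35.1 to 459 ± 161, and the vesicle protein Scamp5 rose from 17.6 ± 2.33 to 86.0 ± 26.4 and from 10.8 ± 5.58 to 36.9 ± 6.39. Rab34, Rab36 and Nostrin rose by 1.10 to 1.55 on the log2 scale in control and by 1.39 to 1.47 with IFNβ.

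Of 9 genes of intracellular signalling, Cdk18, a cyclin-dependent kinase of the PCTAIRE group, read 164, 310 and 344 and then 1015, 1371 and 1202 in control, and 419, 472 and 600 and then 2059, 2725 and 2823 with IFNβ. Its IFNβ libraries were above the control libraries of the same time at both times. Dusp13, a dual-specificity phosphatase, read 32.6, 3.51 and 8.74 and then 136, 78.3 and 109 in control, and 15.6, 0 and 17.3 and then 79.9, 62.5 and 68.3 with IFNβ. Naip1, a cytosolic sensor of bacterial secretion needles, rose from 14.1 ± 6.76 to 71.0 ± 4.83 and from 23.3 ± 2.83 to 122 ± 27.7. Blnk, an adaptor of B-cell receptor signalling also used by macrophages, rose 5.23-fold and 3.21-fold. Cdkn1c, the cell cycle inhibitor p57, rose 2.36-fold and 2.62-fold. Card14 was at 0 in all 3 IFNβ libraries at 12 h and at 0.775, 11.5 and 7.96 at 24 h.

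Among 5 nuclear and RNA-binding regulators, Dnmt3a, a DNA methyltransferase that sets new methylation marks, had the highest normalized counts. Dnmt3a read 1971, 2706 and 2438 and then 6006, 6180 and 7063 in control, and 3115, 2926 and 3858 and then 6924, 5963 and 7005 with IFNβ, with overlapping treatments at 24 h. Eya1, a transcriptional co-activator and phosphatase, rose from 49.0 ± 2.93 to 191 ± 59.6 and from 29.8 ± 16.4 to 84.9 ± 31.2. Pgr, the progesterone receptor, was at 0 in all 3 IFNβ libraries at 12 h and at 3.74, 4.23 and 17.0 at 24 h.

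The last role, proteases and stefin inhibitors, held Anpep, with the highest normalized counts of the members, and Prss46, with the largest rise on the log2 scale used here. In the authors' deposited table other members had a larger log2 fold change than Prss46 (3.94) with IFNβ. Among them were Gm14461 (5.98), Col19a1 (5.86), Card14 (5.65), Oprd1 (5.62) and Crtac1 (4.72). Anpep, the membrane aminopeptidase N (CD13), read 4749, 5326 and 8487 and then 17822, 15444 and 20385 in control, and 7058, 5256 and 9825 and then 22632, 18123 and 23351 with IFNβ. It rose 2.89-fold and 2.90-fold, with overlapping treatments at both times. Prss46, a serine protease, read at most 0.881 in the control libraries at 12 h and 66.0, 63.1 and 61.6 at 24 h. With IFNβ, Prss46 read 0.188, 5.96 and 9.19 at 12 h and 64.7, 86.0 and 99.0 at 24 h. Among members given no role, Trim47, a RING finger protein, rose from 20.6 ± 3.52 to 102 ± 18.5 in control and from 8.36 ± 6.22 to 48.1 ± 15.2 with IFNβ. Scgb1a1, a secretoglobin abundant in airway fluid, rose from 23.4 ± 12.7 to 168 ± 31.0 and from 16 ± 6.07 to 76.8 ± 24.2. The low members Amdhd1 and Igsf11 had means of 5.55 and 4.85 over the 12 libraries.

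**Figure D2:**
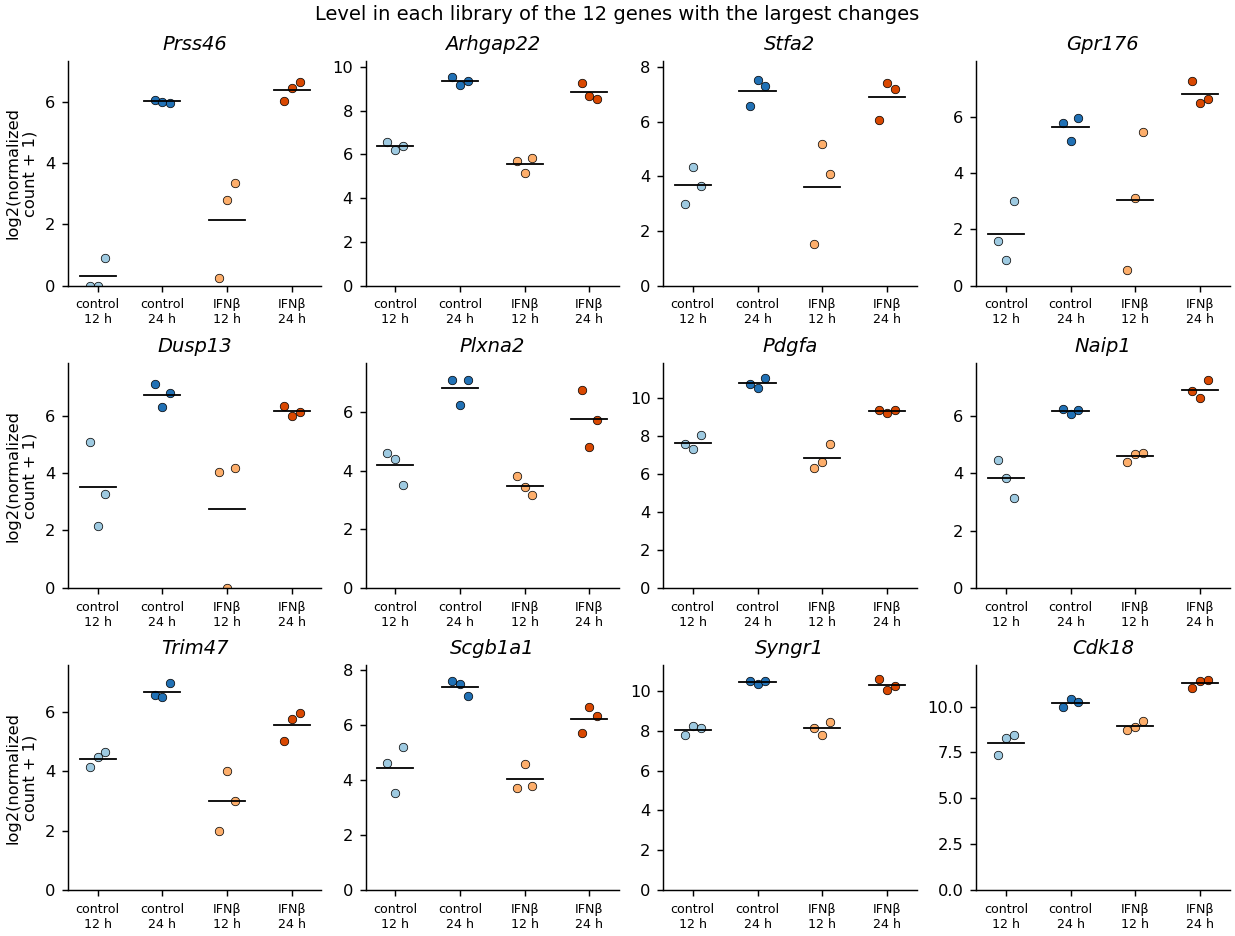
Level of the 12 genes with the largest smaller rise (the lowest 25% by mean left out), as log2(normalized count + 1), in the 12 libraries. Points are single libraries of each group and bars are means of 3; every gene shows its 24 h points above its 12 h points within each arm, for example Pdgfa from 190, 159 and 260 to 1707, 1437 and 2075 in control.

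**Figure D3:**
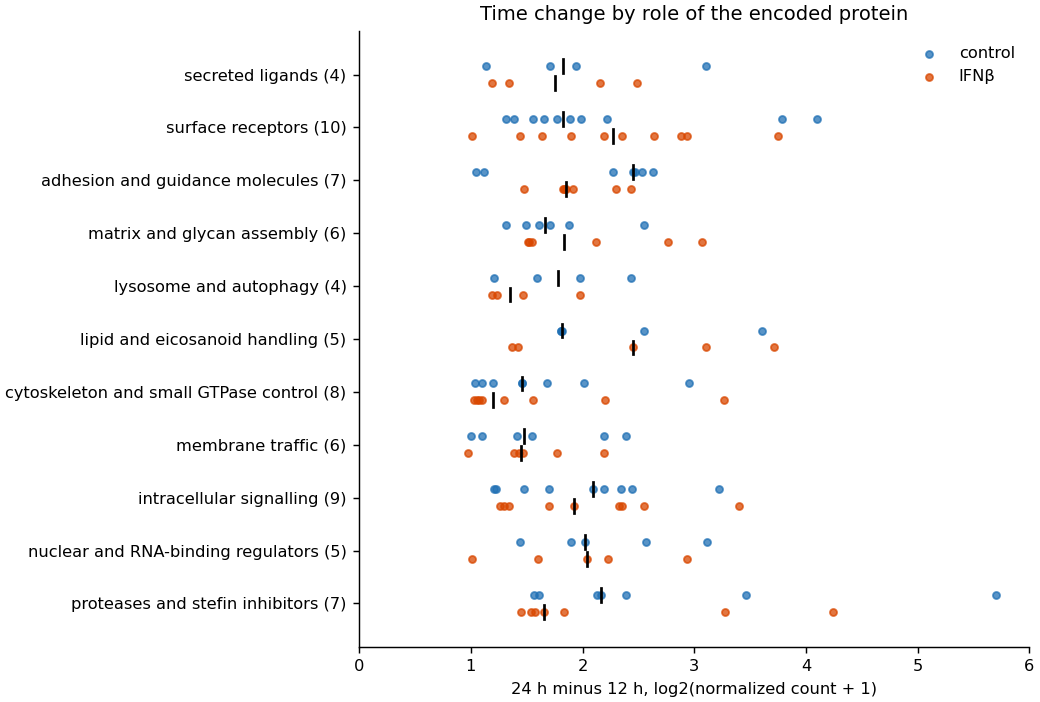
Change from 12 h to 24 h on the log2 scale for the 71 members with a role, by role, with the number of genes in brackets. Blue points are control, orange points are IFNβ, and black bars are medians; medians ran from 1.46 (cytoskeleton) to 2.45 (adhesion and guidance) in control.

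The stefins, small cytosolic inhibitors of cysteine cathepsins, gave 4 members on chromosome 16: Stfa2, Stfa2l1, Stfa3 and Gm5483 (Cstdc4). Stfa2l1 read 124, 194 and 103 in control at 12 h and 541, 1065 and 628 at 24 h, and 94.9, 239 and 139 and then 257, 723 and 421 with IFNβ. Stfa2 read 7.03, 19.5 and 11.4 and then 94.9, 182 and 155 in control, and 1.91, 35.3 and 16 and then 66.3, 167 and 143 with IFNβ. In every group of 3 values for these genes the second library, replicate 2, was the highest.

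Replicate 2 was the highest in all 4 groups for 8 of the 97 genes (8.25%), the 4 stefins, the skin-type aspartic protease Asprv1, the formyl peptide receptor Fpr1, Gpr27 and Cdkn1c, against 11 of the 224 genes in both time tables (4.91%). Replicate 1 was highest in all 4 groups for 5 members (5.15%, against 7.59% of the 224) and replicate 3 for 6 (6.19%, against 12.1%). Over the first 7 of those 8 genes, replicate 2 exceeded the next library by 1.17 to 3.62 times, with a median of 1.76. Asprv1 read 130, 366 and 174 and then 587, 1446 and 822 in control, and 116, 313 and 120 and then 232, 876 and 442 with IFNβ. Fpr1 read 269, 478 and 323 and then 880, 1943 and 971, and 304, 677 and 369 and then 642, 1322 and 737. Deviations from the group mean over the 12 libraries, which share these replicate numbers, correlated with those of Stfa2l1 at r = 0.94 for Asprv1 and Fpr1, 0.89 for Stfa3 and Gpr27, 0.82 for Gm5483 and 0.80 for Stfa2. Genes that are not members came near these values. Ccr9 at 0.81 was above Stfa2, and Col4a1 and Jchain, both at 0.78, were below it. The likeness to Stfa2l1 was looked for after values had been seen. The summed neutrophil markers given above, which include Stfa2l1, were also highest in replicate 2 at both control times. So were summed B cell and plasma cell markers (204, 680 and 395 at 12 h and 160, 367 and 193 at 24 h) and megakaryocyte markers (772, 1193 and 1143 and then 2071, 2899 and 2622), and the part of any of them in these genes' values was not tested.

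**Figure D4:**
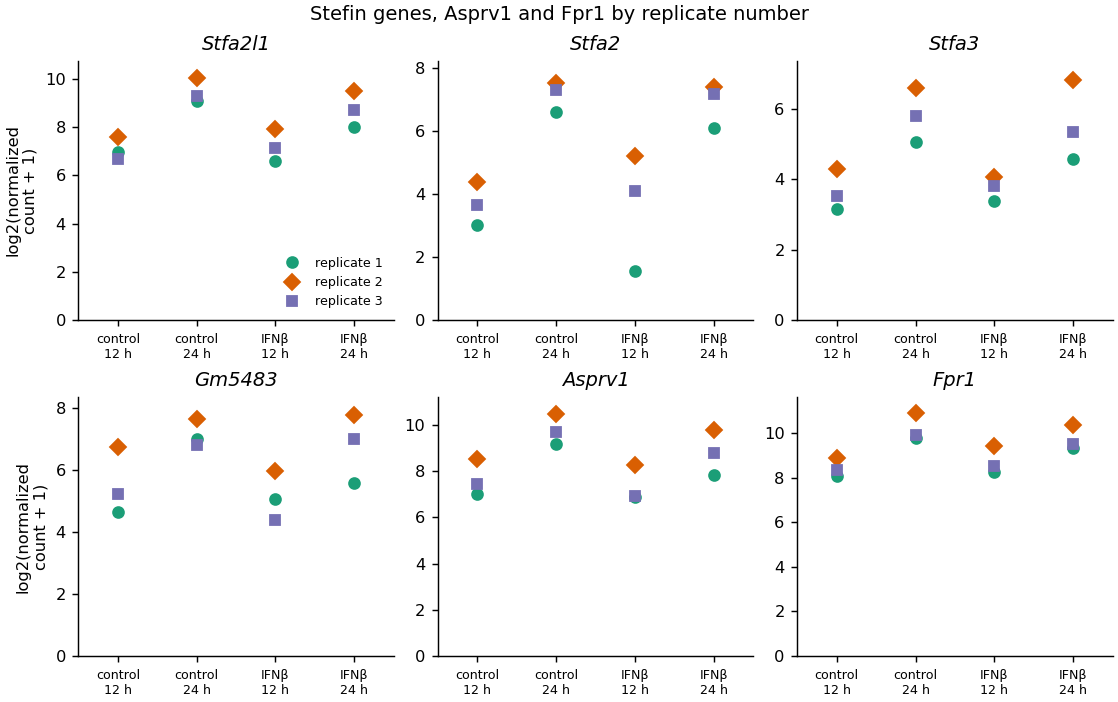
Level of the 4 stefin genes, Asprv1 and Fpr1 as log2(normalized count + 1) in the 12 libraries, with the replicate number given by colour and shape. In all 4 groups of each panel the replicate 2 library (diamond) is the highest, and the 24 h points are higher than the 12 h points of the same replicate number.

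The stefin promoters are shown to describe how alike they are. In the 250 bases before the start site, Stfa2 and Stfa2l1 were 89.4% identical, Stfa3 was 80.4% and 80.5% identical to them, and Gm5483 was 68.7% to 72.9% identical to the other 3. The longest run of bases common to all 4, ACCTTTAAAACCC (13 bases), was searched for in these windows, so its presence in them was fixed. It lay close to the start site. It was found in 8 of 32851 windows (0.0244%), which belong to these 4 genes and to Stfa1, Csta3, Cstdc3 and Gm7260. Reads may be split between these genes, but their transcripts were not compared, and likeness of promoters does not show it. Each promoter is printed 5′ to 3′ on the gene's strand (GRCm38.p6, RefSeq) with that run in capitals: Stfa2 at chr16:36408364-36408613 (minus), Stfa2l1 at chr16:36156561-36156810 (plus), Stfa3 at chr16:36455393-36455642 (minus) and Gm5483 at chr16:36183962-36184211 (plus).
Stfa2: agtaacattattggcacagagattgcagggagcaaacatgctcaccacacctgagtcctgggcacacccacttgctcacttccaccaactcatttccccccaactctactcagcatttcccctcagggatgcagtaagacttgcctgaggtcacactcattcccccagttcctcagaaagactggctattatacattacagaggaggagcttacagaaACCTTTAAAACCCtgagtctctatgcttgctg
Stfa2l1: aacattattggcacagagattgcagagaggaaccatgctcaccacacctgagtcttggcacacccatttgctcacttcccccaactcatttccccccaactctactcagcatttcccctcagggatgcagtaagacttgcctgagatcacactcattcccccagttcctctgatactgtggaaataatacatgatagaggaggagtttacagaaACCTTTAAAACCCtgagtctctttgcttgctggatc
Stfa3: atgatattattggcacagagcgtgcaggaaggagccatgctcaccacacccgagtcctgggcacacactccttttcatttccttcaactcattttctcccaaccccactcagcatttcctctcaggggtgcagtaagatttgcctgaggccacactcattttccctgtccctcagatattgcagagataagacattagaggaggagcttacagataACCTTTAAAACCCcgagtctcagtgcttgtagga
Gm5483: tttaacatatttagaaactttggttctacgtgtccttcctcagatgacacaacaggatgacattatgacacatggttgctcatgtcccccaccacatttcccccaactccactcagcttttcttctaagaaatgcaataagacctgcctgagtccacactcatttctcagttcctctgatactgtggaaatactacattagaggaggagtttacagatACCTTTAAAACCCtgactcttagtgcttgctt

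Whether IFNβ changed the size of the rise was tested over the 224 genes of both time tables with limma, as the difference between the rise with IFNβ and the rise in control. None of the 97 members passed at an adjusted p under 0.05, against 7.59% of all 224 genes (17 genes) and 5 of the 146 genes outside the 12 h IFNβ table. The choice of members bears on this 0, so nothing is read from it: they had to be listed as rising in both arms and not as changed by IFNβ at 12 h, and of the 12 genes left out by name 4 passed (Folr2, Gbgt1, Plpp3 and Rnase4). At an unadjusted p under 0.05 there were 5 members. The differences were positive for 46 members and negative for 51, with a median of -0.03 on the log2 scale and a median standard error of 0.55. Cd300ld4 had the smallest p, with a rise larger by 1.38 ± 0.50 (SE) with IFNβ (95% interval 0.30 to 2.46, limma adjusted p = 0.118). Lrrc14b and Tmem144 had differences of 1.15 and 0.86, and Sdc1 and Rragd of -0.79 and -0.97, with limma adjusted p of 0.185 to 0.236. In simulated libraries of the same size, which varied independently, this test called 9 of 30 genes given a 2-fold difference. It called 20 of 30 at 4-fold and 29 of 30 at 16-fold. In that simulation, differences of 2-fold were mostly below its reach. With the replicate number as a block, 5 members passed, 2 with positive and 3 with negative differences, against 20.1% of all 224 genes (7.59% positive, 12.5% negative): Cd300ld4 (limma adjusted p = 0.0323) and Myo1e (0.0242) with the larger rise under IFNβ, and Fpr1 (0.0221), Sdc1 (0.0340) and Stfa2l1 (0.0491) with the larger rise in control.

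Absence from the 12 h IFNβ table was part of the choice, so the difference between treatments at 12 h is a description. It had a median of -0.19 on the log2 scale over the members, with 60 lower and 37 higher with IFNβ, and ran from -1.87 (Card14) to 1.83 (Prss46). The authors listed 8.86% of genes tested in that comparison.

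The contrast of IFNβ with control at 24 h was not itself used by the rule, although the 24 h libraries were. It is the difference at 12 h plus the difference in rise, and the choice of members bears on both. So nothing is read from the share of members called beside that of other genes. At 24 h, limma without the replicate block called 10 members higher and 13 lower with IFNβ at an adjusted p under 0.05. These were 23 of the 97 genes. That was 23.7% of the members, beside 41.5% of all 224 genes (93 genes; 20.5% higher, 21.0% lower) and 28.1% of the 146 genes that the 12 h IFNβ table does not hold. The groups did not overlap for 22 of the 23, the exception being Lrp12. Over all members, IFNβ libraries lay wholly above control for 13, wholly below for 32, and overlapped for 52; that is 13.4% and 33.0%, beside 24.6% and 33.5% of the 224 genes. The comparison rests on the linking of separately scaled tables: with no linking 4 were higher and 36 lower (14.3% and 37.1% of all 224 genes), and with the medians of both arms set equal 6 were higher and 29 lower (17.9% and 32.6%). The medians set equal were those of gene levels at 24 h and not of the differences per gene. Against the median difference of -0.30 over the 224 genes, no linking and equal medians moved that median by -0.32 and -0.21, to -0.62 and -0.50. With the replicate block 11 were higher and 31 lower (of all 224 genes 57.6% were called, 22.8% higher and 34.8% lower). Without control replicate 1 at 24 h, or without control replicate 3, 14 were called. The number called higher was 6, 4 and 5 without control replicate 1, 2 or 3 at 24 h and 5 without IFNβ replicate 1 or 3, and the number called lower was 8 without control replicate 1.

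Members higher with IFNβ at 24 h were led by Cd300ld4, by 2.40 ± 0.36 (SE) on the log2 scale (limma adjusted p = 1.41e-04). Kitl was higher by 1.93 ± 0.48 (adjusted p = 0.00544). Pcp4l1, a small protein of the Purkinje cell protein 4 family, read 125, 153 and 114 in control and 282, 327 and 290 with IFNβ, a difference of 1.20 ± 0.30 (adjusted p = 0.00558). Cdk18 was higher by 1.08 ± 0.27 (adjusted p = 0.00591). The rest, Cd300ld5, Lrrc14b, Hyal1, Pla2g2e, Edaradd and Lrp12, differed by 0.69 to 2.39 with adjusted p of 0.0220 to 0.0473.

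Members lower with IFNβ at 24 h spanned several roles. Rragd differed by -1.62 ± 0.31 (SE, limma adjusted p = 8.11e-04), Tns1 by -1.09 ± 0.22 (0.00117) and Dock3 by -1.69 ± 0.36 (0.00172). Pdgfa differed by -1.44 ± 0.30 (0.00172), Pltp by -1.30 ± 0.28 (0.00176) and Cadm1 by -1.13 ± 0.29 (0.00591). Dscam had the largest difference, -2.0 ± 0.49 (0.00498), and Sbf2 stood at -1.03 ± 0.27 (0.00730). Gm14461, Shtn1, Pomk, Scamp5 and Eya1 differed by -0.61 to -1.81 with adjusted p of 0.0156 to 0.0497. With the replicate block, genes that replicate 2 led were called lower as well: Asprv1 (limma adjusted p = 4.26e-04), Stfa2l1 (0.00682), Fpr1 (0.0164) and Gpr27 (0.0252), none of which passed without it.

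Across the 23 settings tried, 9 genes passed in each: Cd300ld4, Pcp4l1 and Cdk18, higher with IFNβ, and Rragd, Tns1, Dock3, Pdgfa, Pltp and Cadm1, lower. Their largest adjusted p in any setting was 0.0451, for Cdk18.

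**Figure D5:**
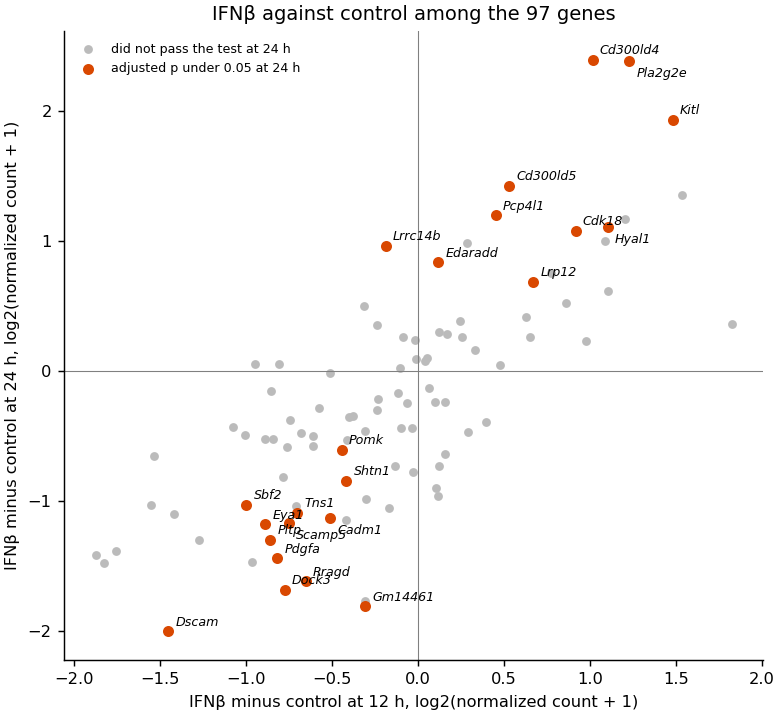
Difference between IFNβ and control at 12 h (horizontal axis) and 24 h (vertical axis) for the 97 genes, in log2(normalized count + 1) on the linked scale. Each point is 1 gene, and the 23 orange points, named, had a limma adjusted p under 0.05 at 24 h without the replicate block. Cd300ld4 (2.40) and Dscam (-2.0) mark the ends. With no linking of the tables, 4 genes were called higher and 36 lower.

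Lists of genes, most of them for macrophage biology, held from 0 to 2 members each. These counts depend on which genes each list names. They also depend on the genes left out by name, such as Ctsk of the osteoclast list, which rose in both arms. The lysosome list lacks Hgsnat and Hyal1, and the receptor list lacks Gpr176, Gpr27, Prokr1 and Oprd1. The transcription factor list lacks the nuclear regulators Hand1, Pgr and Eya1, and the growth factor list lacks Kitl and Tnfsf12, all of them members. Of 37 genes of lipid uptake and metabolism, 8 were listed as rising and none as falling in control, and 10 rose and 1 fell with IFNβ; Pltp and Hpgds are members. Of 41 tissue macrophage genes, 8 rose and 1 fell in control and 8 rose and 2 fell with IFNβ, and Hpgds is the member. Of 37 growth factors and cytokines, 5 rose in each arm, Pdgfa and Gdf15 among them, while 1 fell in control and 2 with IFNβ. Of 40 matrix genes, 9 rose and 5 fell in control and 5 rose and 3 fell with IFNβ, with Timp3 a member. Of 41 adhesion and guidance genes, 5 rose and 2 fell in control and 3 rose and 2 fell with IFNβ, with Itga6 and Cadm1 members. Of 21 osteoclast genes, 5 rose and 2 fell in control and 3 rose and 2 fell with IFNβ; Tm4sf19, a membrane protein, is the member and read 513, 312 and 298 and then 2005, 1491 and 2040 in control. Of 54 G protein-coupled and purinergic receptors, 4 rose and 2 fell in control and 5 rose and 3 fell with IFNβ, with Fpr1 a member. Of 37 cell cycle genes, 2 rose and 1 fell in control and 1 rose with IFNβ, and Cdkn1c is the member. Of 38 lysosome genes 4 rose in each arm, and of 67 transcription factors 5 rose and 2 fell in control and 2 rose and 4 fell with IFNβ, and neither list held a member. Of 30 chemokines and their receptors, 1 rose and 3 fell in control and 4 rose and 5 fell with IFNβ, and of 12 Bex and Tceal genes 2 rose in control; no member is among them. All of these counts are the authors' listings, which over all genes tested held 0.961% falling in control and 1.72% falling with IFNβ.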

How the data were processed

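The 3 deposited tables give, per the file headers, 6 libraries each with the authors' log2 fold change and p-value, raw and adjusted. Library values were read as a signal, normalized counts scaled by the authors within each table; no header names the unit, and depth is unknown. Every listed gene had an adjusted p under 0.05 and changed by at least 1 in log2. Per the submitters' processing notes, bcl2fastq, HISAT2 2.2.1, edgeR 3.3.3 and GRCm38 were used; how reads were counted, and whether by strand, is not given in the sources used here. The members and lists were chosen with earlier results of these data known.

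Time tables were linked to the 12 h IFNβ table by the median ratio of shared 12 h libraries, over genes of at least 100. The planned count test was not used, since only normalized values of changed genes were at hand. limma 3.58.1 (R 4.3.3) was fitted on log2(linked value + 1) with a variance trend over 12 libraries and 224 genes, with Benjamini-Hochberg adjustment over the 224. On simulated data, the 24 h comparison called 76.7% of 2-fold and 80.0% of 4-fold changes. Both comparisons called 1.49% of unchanged genes. Simulated libraries varied independently, while same-numbered libraries here deviated together, so these rates may not hold for the real libraries. Named members were the 12 with the largest smaller log2 fold change outside the lowest 25% by mean, the 8 highest and 3 lowest by mean, up to 12 by each test, list members and threshold neighbours; others were chosen after their values were seen. A gene that this rule names is not reported here.

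Same-numbered samples deviated together over the 224 genes in all 18 pairs (r 0.196 to 0.509, against -0.425 to 0.108 for different numbers). Over the members alone r ran from -0.03 to 0.60. The main fit did not use this pairing. Results with the replicate number as a block are given beside it. Python 3.11.15, pandas 2.3.3 and Biopython 1.88 (global alignment of promoters) were used. RefSeq matched 96 members by symbol and 1 by synonym. Alternatives were a pseudocount of 0.1, a mean of at least 10, the block, no variance trend, each library left out, other scalings and stricter thresholds; the block without a trend and each replicate number left out were added after seeing the data.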

Additional observations from a re-analysis of the deposited data

How the results depend on the processing

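The number of members was 64 at an adjusted p under 0.01, 54 at a log2 fold change of at least 1.5, 147 with genes of the 12 h IFNβ table kept, 92 when all 24 h libraries had to exceed all 12 h libraries, and 89 without the genes that replicate 2 led in every group. The median rise was 1.81 in control and 1.74 with IFNβ among members with a mean of at least 10, and leaving out single libraries gave 1.82 to 1.92 and 1.75 to 1.95. The difference in rise called 5 members with the replicate block, 2 with the block and no variance trend, and 0 to 1 with 1 library or replicate number left out (1 without IFNβ replicate 1 at 12 h or replicate 2 at 24 h). IFNβ against control at 24 h called 42 members with the replicate block (11 higher, 31 lower) and 42 with the block and no variance trend (32 lower). It called 35 with medians set equal (6 higher, 29 lower) and 40 with no link (4 higher, 36 lower). With 1 library or replicate number left out it called 13 to 26, with 4 to 10 higher and 8 to 16 lower, and 14, 16 and 13 without replicate 1, 2 and 3 in all groups. Of 505 values of the 23 called genes under the alternatives, 395 stayed past the threshold, 110 did not, and 0 changed direction. The cause of these shifts was not tested. Depth is unknown, so counting error could not be set beside values near 0.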
